A study of Mus musculus with 6 samples.

Results

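The genes of TGF-β and BMP signaling were followed in mouse embryonic fibroblasts (MEFs) with and without the helicase gene Mcm8. They are 51 genes picked by name among the 55565 genes of the deposited tables: 3 TGF-β ligands, 3 activin and inhibin chains, 11 ligands of the BMP and GDF families, 6 type I and 4 type II receptors, 2 coreceptors, 8 SMADs, 9 antagonists, 4 ID genes, and Bmp1, a metalloprotease that shares only its name with the ligands. Reads were found for 50 of them, and Bmp7 was at 0 counts in every library. Ligands of this family bind a pair of receptor kinases, the type II receptor switches on the type I receptor, and the type I receptor phosphorylates SMAD proteins. SMAD2 and SMAD3 carry TGF-β and activin signals, SMAD1, SMAD5 and SMAD9 carry BMP signals, and both sets act together with SMAD4 in the nucleus. In fibroblasts, TGF-β is known for driving matrix production and contractile genes, and BMPs for switching on the ID genes.

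WT and KO MEFs were compared by bulk RNA sequencing in 3 libraries each (WT1 to WT3, KO1 to KO3), and library values are given in that order. The KO mice carried a frameshift made with CRISPR-Cas9 by deleting exon 7 of Mcm8, and both genotypes came from crosses of heterozygotes on a mixed background of C57BL/6J and ICR. MEFs were grown from E13.5 trunks, without head, tail, limbs, heart or liver, and WT and KO cells alike had been immortalized with a lentivirus carrying the SV40 gene SV40gp6 and selected with puromycin. The study's methods call the 3 repeats biological but do not say if each came from its own embryo, immortalized line or culture. The p-values rest on the spread between these libraries as fitted over genes, not on the spread of each gene alone. That spread may be technical in part. Mcm8 was at 13.8, 16.6 and 12.8 CPM (counts-per-million after TMM scaling) in WT and at 4.20, 4.45 and 4.12 CPM in KO, 29.6% of the WT mean, with reads counted over the whole gene, not over exon 7 alone. Library totals lay between 12722979 and 21022755 counts. WT1 stood apart: its counts differed from those of the other WT libraries by a chi-square per gene of 13.8 and 13.0, against 4.35 between WT2 and WT3 and from 2.64 to 3.03 between KO libraries. Results are therefore also given without WT1 for the members whose call that changed, and for some other genes. In bulk RNA, fewer cells that express a gene and less of its RNA per cell cannot be told apart.

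The members spanned a wide range of levels, from single counts to an FPKM (fragments per kilobase of gene length, scaled to sequencing depth) near 200. Fstl1, a secreted follistatin-like glycoprotein, was the highest at 181.9, 192.6 and 186.1 FPKM in WT and 208.4, 209.8 and 207.8 FPKM in KO, followed by the BMP antagonist Grem1 at 43.0 ± 0.682 FPKM in WT and 40.7 ± 0.467 in KO (mean ± SD, n = 3 here and below). Tgfb3 led the TGF-β ligands at 23.5, 27.0 and 24.3 FPKM in WT and 24.9, 24.7 and 24.6 FPKM in KO. Gdf11 led the BMP and GDF ligands at 6.33, 6.20 and 6.45 FPKM in WT and 7.195, 6.43 and 6.83 FPKM in KO. The WT and KO libraries were apart for Fstl1, higher in KO, and for Grem1, lower in KO, and they overlapped for Tgfb3 and Gdf11. Among receptors, Bmpr1a was the highest type I receptor, at 27.5, 29.6 and 26.5 FPKM in WT and 26.0, 27.3 and 27.2 FPKM in KO, and Tgfbr3, also called betaglycan, the higher coreceptor, at 19.5, 20.8 and 20.6 FPKM in WT and 19.9, 19.7 and 19.8 FPKM in KO. Smad4, the SMAD shared by both branches, stood at 32.8, 37.4 and 34.6 FPKM in WT and 35.3, 35.8 and 35.3 FPKM in KO. Smad7, an inhibitory SMAD, stood at 8.87, 9.21 and 8.97 FPKM in WT and 8.17, 8.05 and 9.09 FPKM in KO. The WT and KO libraries overlapped for all 4 of these genes, while the protease gene Bmp1, at 28.3 ± 0.826 FPKM in WT and 30.4 ± 1.05 in KO, had KO libraries above WT in FPKM but overlapping ones in CPM. At the other end, 8 members with counts had a mean under 1 CPM over the 6 libraries: Bmp3, Bmp5, Gdf5, Gdf6, Gdf10, Gdf15, Acvr2b and Nog.

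**Figure D1:**
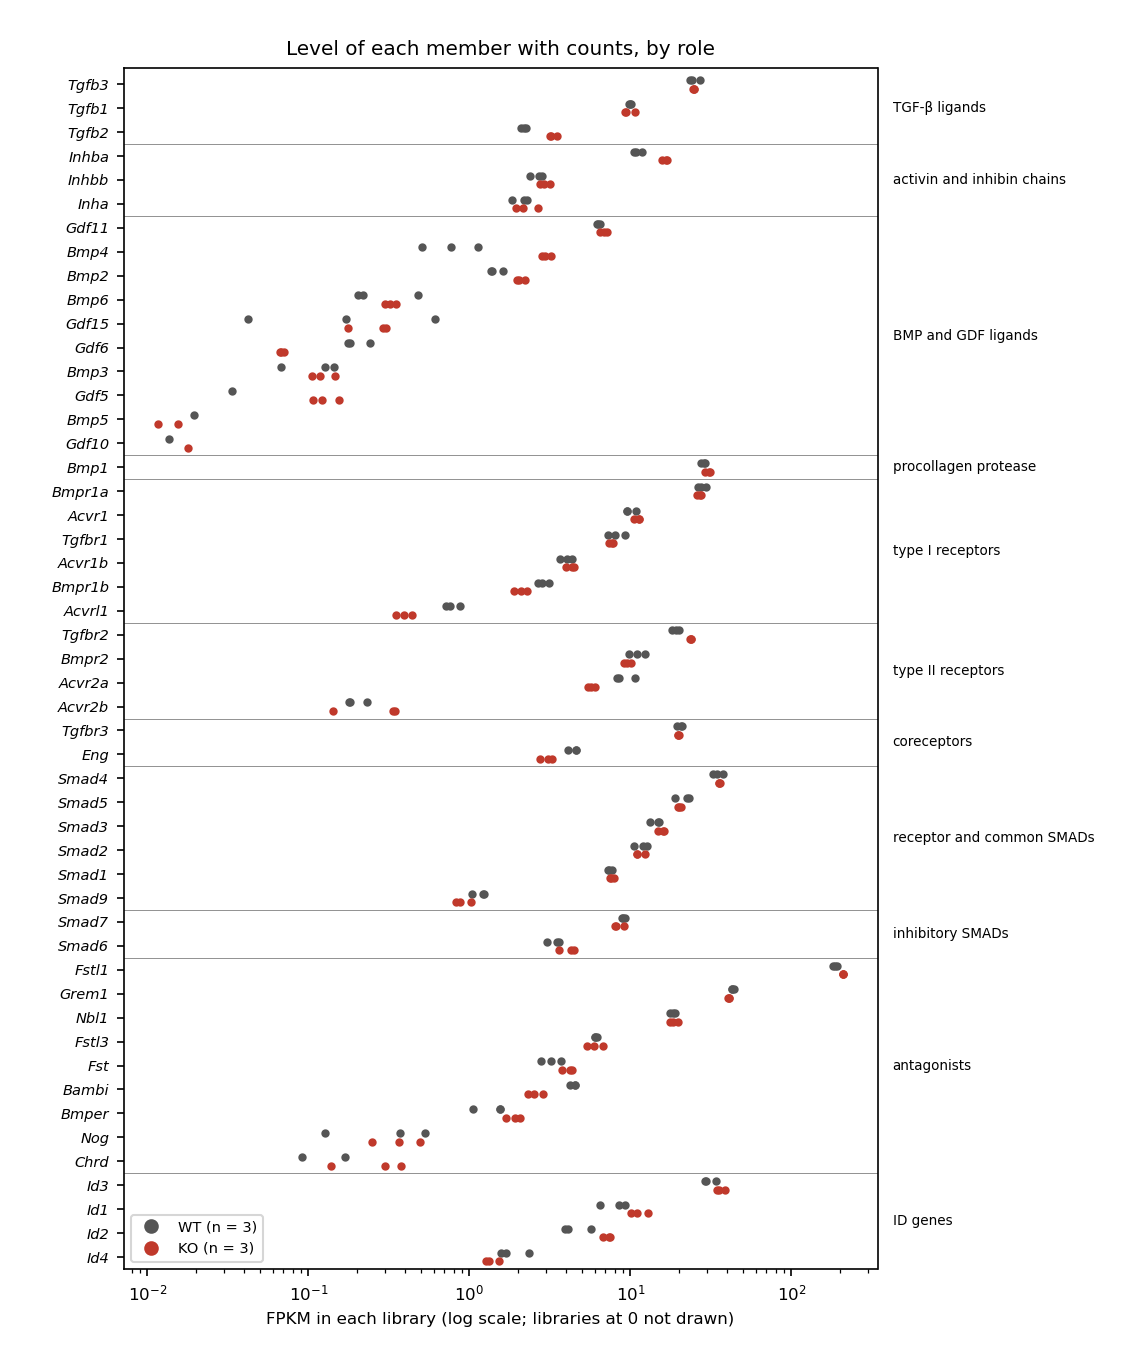
Level of each of the 50 members with counts, in FPKM on a log axis, with 1 point per library (grey WT, red KO, n = 3 each) and members grouped by role; libraries at 0 are not drawn. The ranges of the WT and KO points do not overlap for 22 members, Fstl1 is the highest at about 182 to 210 FPKM, and the red points lie to the right of the grey ones for Bmp4, Inhba and Id2 and to the left for Acvrl1, Acvr2a and Bambi.

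With edgeR's quasi-likelihood test, 9 of the 50 members with counts were higher in KO at a Benjamini-Hochberg adjusted p below 0.05 and 6 were lower, against 4.97% higher and 4.03% lower among all 26898 genes tested. These are 18% and 12% of the members, but the members are better expressed than most genes: with a mean of at least 1 CPM, 9 of 42 members (21.4%) were higher and 6 (14.3%) lower, against 9.08% and 7.88% of 13222 genes. The members were chosen with earlier results of these data known, so these shares describe them and are not a test. Differentially expressed genes (DEGs), which also had to change more than 2-fold, numbered 2 among the members, Bmp4 and Chrd, both higher in KO, where 1.75% of all genes tested were DEGs higher in KO. Among all genes 0.665% were DEGs lower in KO; 0 members were by edgeR, DESeq2 or voom, and 1, Gdf6, would be at an unadjusted p below 0.05. The WT and KO libraries did not overlap in CPM for 22 members (44.0%), against 21.6% of all genes tested. That background covers genes of every level, so the 2 shares are not matched for expression. With a mean of at least 1 CPM, 20 of 42 members did not overlap, and the share of all genes at that level was not computed. Over the 42 members with a mean of at least 1 CPM the median log2 fold change was 0.062, against -0.00775 over genes of that level. Without WT1, 11 members were higher and 7 lower, since Chrd dropped out and Bmper, Fstl1, Id3 and Smad5 came in. The other 14 called members were called without WT1 too, and the called members past 2-fold were then Bmp4, higher, and Acvrl1, lower at a log2 fold change of -1.01.

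**Figure D2:**
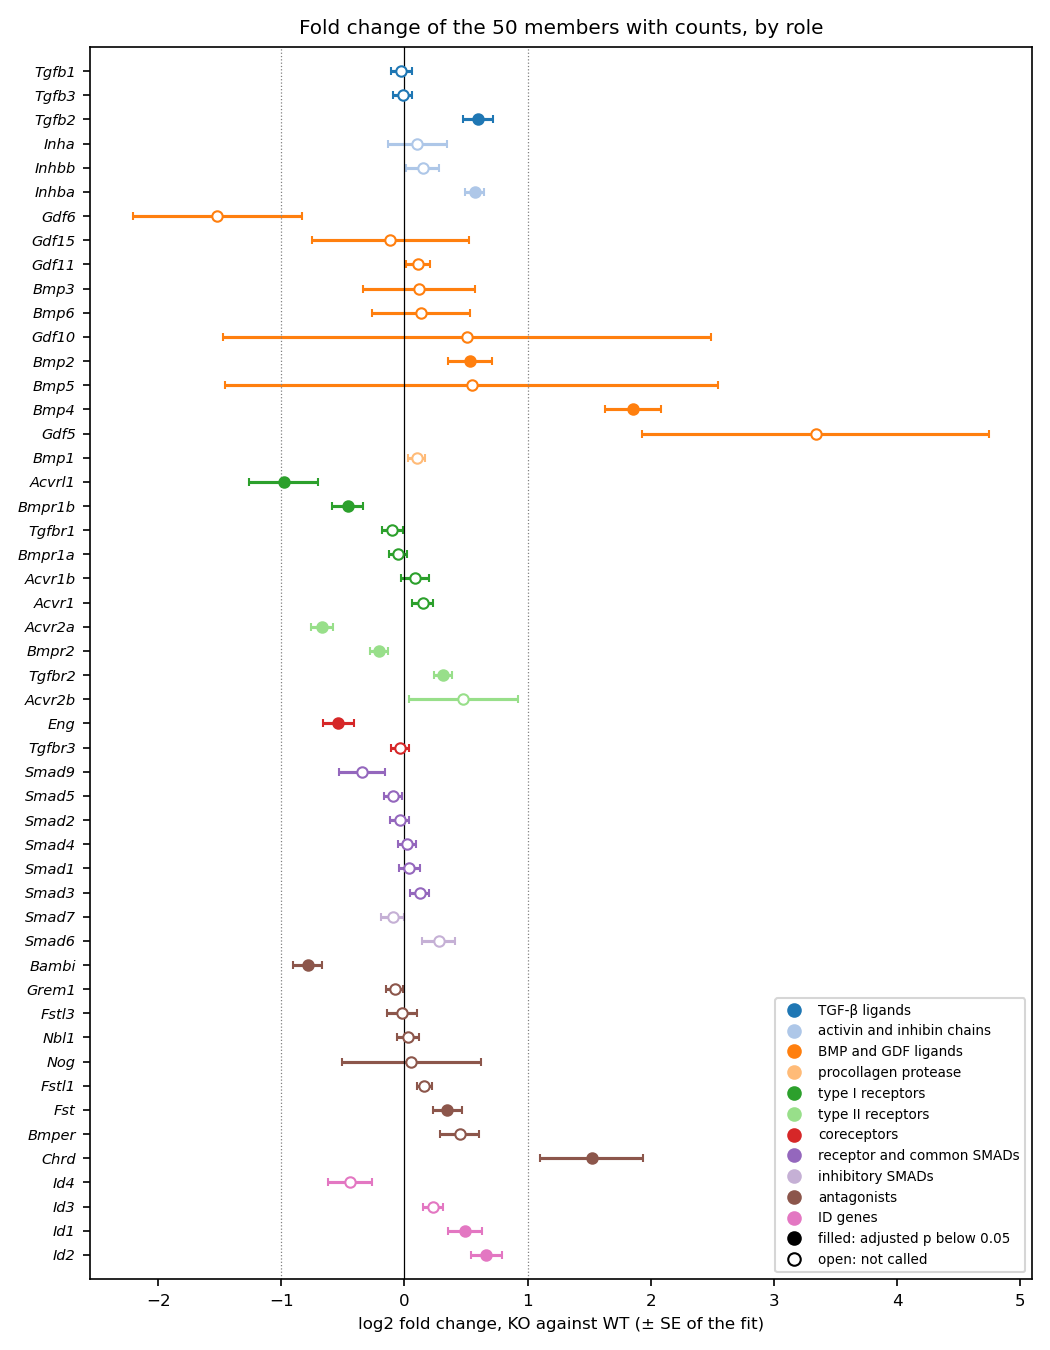
Log2 fold change of KO against WT (x axis, with the SE of the fit) for the 50 members with counts, coloured by role; filled points have an adjusted p below 0.05 and dotted lines mark a 2-fold change. Bmp4 and Chrd are the filled points beyond 2-fold, all SMADs are open, and the wide bars of Gdf5, Bmp5 and Gdf10 belong to genes with a few counts, whose fold changes are not given as values.

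Of the 10 BMP and GDF ligands with counts, 2 were higher in KO, Bmp4 and Bmp2, where 4.97% of all genes tested were higher. Bmp4 (chr14:46620977-46628126 in GRCm39, minus strand), a ligand that patterns embryonic mesoderm, stood at 1.72, 1.14 and 2.58 CPM in WT and at 6.37, 6.67 and 7.31 CPM in KO. No KO library came near a WT library, and the KO mean was 374% of the WT mean (log2 fold change 1.86, SE 0.226, adjusted p = 2.18e-14, or 1.42e-04 with filterByExpr, edgeR's filter on low counts). The WT libraries, with 22, 16 and 48 counts, spread more than counting error alone gives (CV 39.8% against 18.7%), whereas the KO libraries did not (7.03% against 9.09%). Bmp2, a close relative of Bmp4, was at 5.72, 4.85 and 4.94 CPM in WT and 7.32, 7.09 and 7.93 CPM in KO. The groups were apart and the log2 fold change was 0.53 (SE 0.178, adjusted p = 0.0359), but the call was lost when any library other than WT1 was left out, with adjusted p from 0.0667 to 0.169. Bmp2 lies 0.708 Mb from Mcm8 on chromosome 2, and the part of that nearness in the difference was not tested.

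Bmp2 and Bmp4 together accounted for most of the BMP ligand level. Summed over Bmp2 to Bmp7, the level was 2.67 ± 0.454 FPKM in WT and 5.55 ± 0.342 FPKM in KO, a ratio of 2.08, or 1.36 with Bmp4 left out. Bmp4 made up 25.5%, 23.5% and 39.7% of this sum in WT and 52.9%, 55.0% and 54.5% in KO. Bmp2 went from 55.0% ± 7.63 in WT to 37.6% ± 0.746 in KO, so the leading ligand differed between the genotypes. The remaining BMP genes were low and were not called: Bmp3 at 0.838 ± 0.301 CPM in WT and 0.914 ± 0.156 in KO, and Bmp6 at 1.18 ± 0.607 and 1.27 ± 0.0972 CPM. Bmp6 overlaps Txndc5 on the opposite strand, which had 47210 counts against 119 for Bmp6, and since the strand setting of the counting is not given the reads of the pair cannot be told apart. Bmp5 did not pass 3 counts in any library.

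The GDF genes among the members were not called by edgeR, though Gdf5 and Gdf6 had an unadjusted p below 0.05. Gdf5, a ligand of joint formation, had 1, 0 and 0 counts in WT and 6, 6 and 4 counts in KO (adjusted p = 0.143 by edgeR and 0.0204 by voom, which called it). Gdf6, its closest relative, had 8, 12 and 12 counts in WT and 5, 4 and 4 in KO (log2 fold change -1.52, SE 0.684, adjusted p = 0.184). The libraries of the genotypes were apart for both genes, in opposite directions. Gdf15, a stress-responsive member of the family, varied from 0.0784 to 1.14 CPM among WT libraries alone and from 0.330 to 0.562 CPM in KO, and Gdf10 did not pass 3 counts anywhere.

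Among the TGF-β ligands only Tgfb2 was called. Tgfb2 stood at 12.1, 12.7 and 13.2 CPM in WT and at 18.5, 18.6 and 20.5 CPM in KO. Every KO library was above every WT library, at 152% of the WT mean (log2 fold change 0.60, SE 0.121, adjusted p = 2.64e-05, or 0.001 with filterByExpr). Tgfb1 was at 50.2 ± 1.17 CPM in WT and 49.4 ± 3.89 in KO, and Tgfb3 at 84.7 ± 6.20 and 84.0 ± 0.605 CPM, with adjusted p of 0.904 and 0.957. Tgfb3 and Tgfb1 made up 67.3% and 26.8% of the summed level in WT, and the sum of the 3 ligands overlapped between the genotypes, at 37.0 ± 1.94 FPKM in WT and 37.8 ± 0.688 in KO. Tgfb3 shares 5149 bases with Ttll5 on the opposite strand, which had 3908 counts in all against 8370 for Tgfb3 and was not called (adjusted p = 0.649), so the level of Tgfb3 may include reads of Ttll5. Tgfb2 itself went from 5.87% ± 0.273 of that sum to 8.74% ± 0.572.

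Inhba, which encodes the chain of activin A, rose in KO. It was at 67.3, 75.3 and 70.4 CPM in WT and at 107.6, 107.4 and 101.3 CPM in KO. The groups were far apart relative to their spread, with KO at 149% of WT (log2 fold change 0.57, SE 0.0774, adjusted p = 1.25e-11, or 4.79e-05 with filterByExpr). Inhbb, the chain of activin B, and Inha, the chain that turns activins into inhibins, were at 11.3 ± 0.955 and 3.10 ± 0.350 CPM in WT and 12.5 ± 0.884 and 3.35 ± 0.561 CPM in KO and were not called. Inhba thus carried 70.0% ± 3.12 of the level of the 3 chains in WT and 76.0% ± 1.18 in KO. Over the TGF-β, activin, BMP and GDF ligands, 4 of 16 were higher by edgeR. By edgeR, DESeq2 or voom 0 were lower, and 1, Gdf6, was lower at an unadjusted p below 0.05. Among all genes tested by edgeR, 4.97% were higher and 4.03% lower.

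Of the 10 receptor genes, 1 was higher in KO, Tgfbr2, and 4 were lower, Acvrl1, Bmpr1b, Acvr2a and Bmpr2. Among all genes with a mean of at least 1 CPM, 9.08% were higher and 7.88% lower. Acvrl1 encodes ALK1, a type I receptor best known from endothelial cells, and stood at 3.21, 3.07 and 3.76 CPM in WT and at 1.89, 1.503 and 1.69 CPM in KO. The KO libraries were all below the WT libraries, at 50.6% of the WT mean (log2 fold change -0.98, SE 0.281, adjusted p = 0.00817; 0.058 without WT3). Bmpr1b, a BMP type I receptor, was at 16.0, 18.8 and 16.9 CPM in WT and 11.4, 12.5 and 13.7 CPM in KO. Its groups did not overlap either (log2 fold change -0.46, SE 0.124, adjusted p = 0.00358; 0.0933 without KO1). The other 4 type I receptors, Bmpr1a, Acvr1, Tgfbr1 and Acvr1b, had log2 fold changes from -0.10 to 0.15 and overlapping libraries. Acvrl1 and Bmpr1b held 1.46% and 5.36% of the type I level in WT, and the summed level was 53.7 ± 2.05 FPKM in WT and 52.2 ± 0.735 in KO.

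Type II receptors differed in make-up between genotypes. Tgfbr2, the type II receptor for TGF-β, was at 148.5, 164.1 and 158.6 CPM in WT and at 196.2, 192.0 and 196.7 CPM in KO. All KO libraries were above all WT libraries (log2 fold change 0.31, SE 0.0712, adjusted p = 3.17e-04). Acvr2a, an activin and BMP receptor, went the other way, at 48.6, 60.5 and 47.1 CPM in WT and 31.2, 32.5 and 34.5 CPM in KO. WT2 was the highest library, and KO was at 62.8% of WT (log2 fold change -0.67, SE 0.0897, adjusted p = 6.77e-12, or 3.71e-04 with filterByExpr). The groups remained apart without WT2, at a log2 fold change of -0.55 or beyond in every alternative. Acvr2a shares 446 bases with Orc4 on the opposite strand, and Orc4 itself was not called (log2 fold change -0.19, SE 0.0849, adjusted p = 0.18). Bmpr2, the BMP type II receptor, was at 177.1, 221.5 and 200.9 CPM in WT and 171.2, 181.8 and 165.9 CPM in KO. These libraries overlapped, and the call (log2 fold change -0.21, SE 0.0708, adjusted p = 0.0385) was lost when any library other than WT1 was left out, with a log2 fold change of -0.13 without WT2 and of -0.29 without WT1. Acvr2b was low, at 0.777 ± 0.117 CPM in WT and 1.08 ± 0.453 in KO, and not called.

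The summed type II level was 39.5 ± 3.29 FPKM in WT and 39.3 ± 0.209 FPKM in KO, while its parts shifted. Tgfbr2 held 49.4%, 46.4% and 49.6% of it in WT and 61.0%, 59.2% and 60.9% in KO. Acvr2a held 23.0% ± 1.73 of the sum in WT and 14.6% ± 0.716 in KO, and Bmpr2 was at 28.0% ± 1.01 in WT and 24.4% ± 1.08 in KO. Of the coreceptors, Eng, which encodes endoglin and works with ALK1, was at 18.5, 16.7 and 18.8 CPM in WT and 13.4, 12.6 and 11.2 CPM in KO. KO libraries were lower throughout, at 68.8% of WT (log2 fold change -0.54, SE 0.123, adjusted p = 3.16e-04), whereas Tgfbr3 had a log2 fold change of -0.04 (adjusted p = 0.829). Eng overlaps Fpgs by 61 bases on the opposite strand, and Fpgs had a log2 fold change of -0.03. Of 6 endothelial markers, Tie1 and Emcn had no counts, and Pecam1, Cdh5 and Tek reached 0.356, 0.0625 and 0.240 CPM in their highest libraries. Kdr was the most abundant of them, at 1.18, 3.64 and 2.52 CPM in WT and 2.79, 3.97 and 3.68 CPM in KO (adjusted p = 0.3), a range that overlaps that of Acvrl1 in CPM, and voom called Tek higher in KO. The 6 markers summed to 1.25 to 3.99 CPM in WT and 3.07 to 4.33 CPM in KO, and their part in the levels of Acvrl1 and Eng was not tested.

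**Figure D3:**
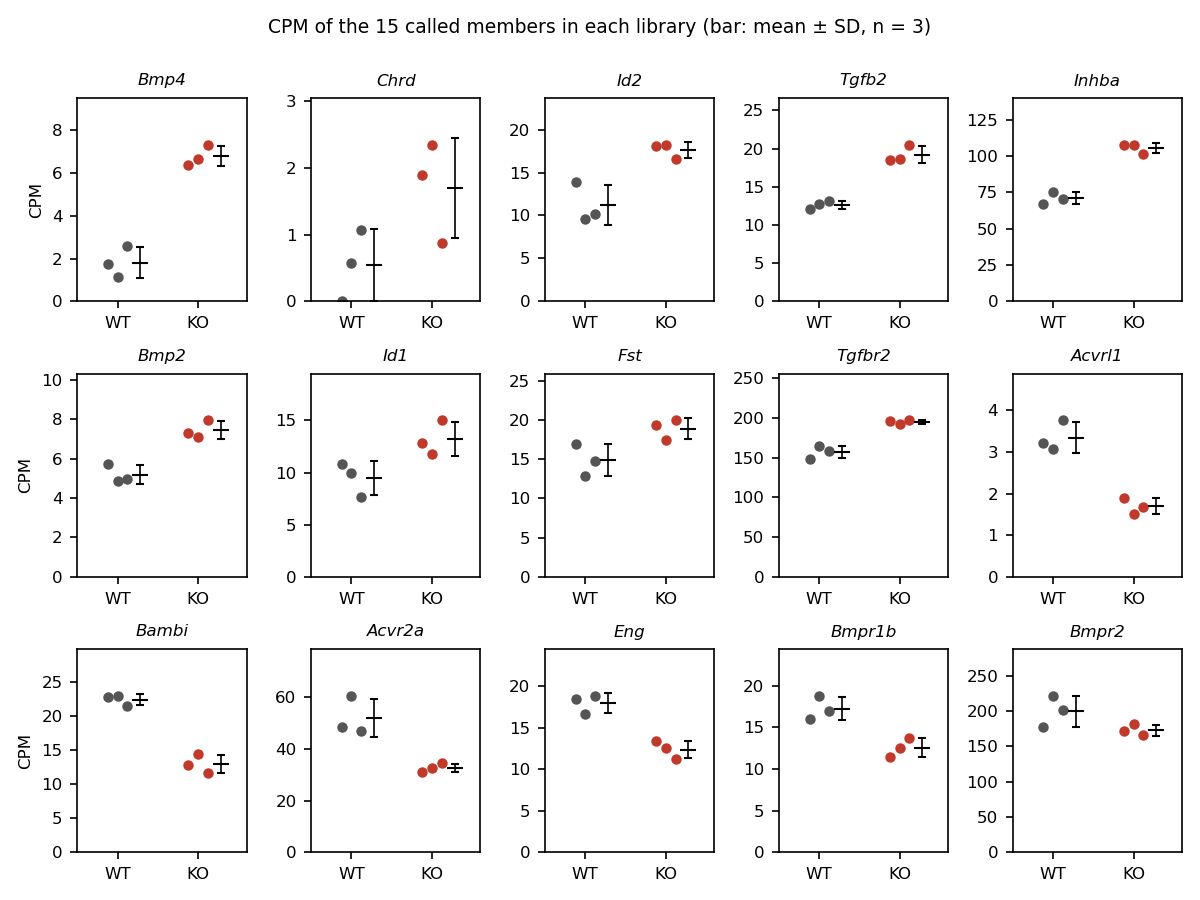
CPM of the 15 called members in each library (points, grey WT and red KO, n = 3 each), with the mean and SD beside them as a black bar; every y axis starts at 0. The first 9 panels are higher and the last 6 lower in KO, and Chrd and Bmpr2 are the panels in which WT and KO libraries overlap.

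The SMAD genes, which carry the signal from the receptors to the nucleus, did not pass the test: 0 of 8 were called by edgeR, DESeq2 or voom, and 1, Smad6, had an unadjusted p below 0.05. The receptor-activated and common SMADs, Smad1, Smad2, Smad3, Smad4, Smad5 and Smad9, summed to 91.1 ± 6.58 FPKM in WT and 91.3 ± 1.04 FPKM in KO. Their log2 fold changes lay between -0.35 for Smad9 (SE 0.188, adjusted p = 0.324) and 0.12 for Smad3 (SE 0.0775, adjusted p = 0.43). Smad9 was the only one of these 6 with WT and KO libraries apart, at 5.57, 6.63 and 6.55 CPM in WT and 5.52, 4.45 and 4.75 CPM in KO. Smad5 was at 160.5 ± 17.0 CPM in WT and 150.5 ± 3.15 in KO, and it was called lower when WT1 was left out (log2 fold change -0.18, adjusted p = 0.00735). The inhibitory Smad6, itself a BMP target, was at 11.6, 9.69 and 11.4 CPM in WT and 11.6, 14.4 and 13.8 CPM in KO (log2 fold change 0.28, SE 0.134, adjusted p = 0.233), and Smad7 had a log2 fold change of -0.10 (SE 0.0906, adjusted p = 0.629).

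Of the 9 antagonists, 2 were higher and 1 was lower, where 9.08% and 7.88% of genes with a mean of at least 1 CPM were higher and lower. Bambi encodes a pseudoreceptor that lacks the kinase and dampens both branches, and it was at 22.9, 23.0 and 21.5 CPM in WT and at 12.8, 14.5 and 11.7 CPM in KO. The WT libraries lay close together and well above KO, which had 57.9% of the WT mean (log2 fold change -0.79, SE 0.117, adjusted p = 9.89e-10, or 1.61e-04 with filterByExpr). Chrd encodes chordin, which binds BMPs outside the cell and is cleaved by the protease BMP1. It had 0, 8 and 20 counts in WT and 40, 39 and 14 counts in KO, so that WT3 exceeded KO3. The log2 fold change was 1.52 (SE 0.42, adjusted p = 0.00516), and it fell to 1.01 without WT1 (adjusted p = 0.0848) and to 1.25 without KO2 (adjusted p = 0.111), and stood at 2.50 without WT3 (adjusted p = 1.74e-04). Libraries of Chrd varied more within a genotype than counting error would give, with a CV of 98.0% against 32.7% in WT and 44.2% against 18.0% in KO. The gene also shares 1385 bases with Thpo on the opposite strand, which had 21 counts in all.

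Fst, whose product follistatin sequesters activin, was at 16.9, 12.8 and 14.8 CPM in WT and at 19.4, 17.4 and 19.9 CPM in KO. The highest WT library was just below the lowest KO library (log2 fold change 0.35, SE 0.118, adjusted p = 0.0377), and the call was lost without WT2, WT3, KO1 or KO3, at adjusted p from 0.0965 to 0.252. Bmper, a secreted BMP-binding protein, was at 7.52, 5.13 and 7.57 CPM in WT and 10.1, 8.18 and 9.37 CPM in KO. Its groups were apart but just missed the threshold (log2 fold change 0.45, SE 0.16, adjusted p = 0.0533), and it was called without WT1, WT3 or KO2 (adjusted p = 0.0201, 0.0339 and 0.0466) and with the replicate number as a block (0.0418). Without WT2, the lowest library, its log2 fold change was 0.29 (adjusted p = 0.385), and DESeq2 and voom did not call Bmper (0.187 and 0.154). Fstl1 also had KO libraries above WT, at 112% of its mean, with an adjusted p of 0.094 by edgeR, and it was called by DESeq2 (0.0369), by voom (0.00455) and without WT1 (0.00115). Grem1, Nbl1, Fstl3 and Nog, all known to bind ligands outside the cell, had log2 fold changes between -0.08 and 0.06 and were not called. Summed over the 9 genes, antagonist levels were 263.7 ± 3.61 FPKM in WT and 283.2 ± 1.10 in KO, a ratio of 1.07, which turned to 0.970 with Fstl1 left out.

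The ID genes encode helix-loop-helix proteins that lack a DNA-binding region and block other factors of the class, and they are standard readouts of BMP signaling. Promoters were read from RefSeq for the ID genes held in its table (build GRCm38.p6), as the 250 bases before the start of transcription, 5′ to 3′ on the strand of the gene. They are shown because the ID genes stood apart between genotypes in differing directions. Capitals mark CAGAC, the SMAD box (GTCTG where it lies on the other strand), or GGCGCC, a GC-rich element bound by BMP-regulated SMADs that reads the same on both strands; a match is a description of the letters and not a bound site.
Id2, chr12:25096093-25096342, minus strand: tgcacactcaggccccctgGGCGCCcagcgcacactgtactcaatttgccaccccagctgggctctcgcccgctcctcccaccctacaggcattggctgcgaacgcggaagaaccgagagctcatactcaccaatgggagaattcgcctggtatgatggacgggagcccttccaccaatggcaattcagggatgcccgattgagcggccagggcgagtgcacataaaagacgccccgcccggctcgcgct
Id3, chr4:136143572-136143821, plus strand: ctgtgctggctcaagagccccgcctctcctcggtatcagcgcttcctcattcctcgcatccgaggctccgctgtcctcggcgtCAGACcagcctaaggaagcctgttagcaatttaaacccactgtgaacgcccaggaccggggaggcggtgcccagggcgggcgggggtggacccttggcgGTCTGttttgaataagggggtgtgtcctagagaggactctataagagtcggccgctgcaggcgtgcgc
Id4, chr13:48260866-48261115, plus strand: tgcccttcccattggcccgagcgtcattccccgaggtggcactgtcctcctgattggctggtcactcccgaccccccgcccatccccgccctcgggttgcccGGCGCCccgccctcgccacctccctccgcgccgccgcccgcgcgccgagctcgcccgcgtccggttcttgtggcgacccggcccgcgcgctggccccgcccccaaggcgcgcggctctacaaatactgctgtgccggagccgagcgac
Id2 held GGCGCC at 231 bases before the start, Id4 held it at 148, and Id3 held CAGAC at 167 and 68 bases before the start. In all, 35 of the 51 members had promoters in the table, 41 with alternative starts. GGCGCC was found in 10 of these 41 (24.4%) and in 9.59% of all 32851 promoters, and CAGAC in 18 of 41 (43.9%) and in 42.2% of all. The matches shown do not overlap each other.

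Id2 showed the clearest change of the ID genes. It was at 13.9, 9.62 and 10.1 CPM in WT and at 18.1, 18.2 and 16.6 CPM in KO. All KO libraries were above WT, at 157% of its mean (log2 fold change 0.66, SE 0.126, adjusted p = 5.57e-06, or 0.00433 with filterByExpr), and more so without WT1, the highest WT library (0.83). Id1 was at 10.8, 9.91 and 7.62 CPM in WT and 12.8, 11.8 and 14.99 CPM in KO. The groups were apart (log2 fold change 0.49, SE 0.139, adjusted p = 0.00666), though not called without WT3 (0.35, adjusted p = 0.179) or without KO3 (0.40, adjusted p = 0.152), the lowest WT and the highest KO library. Id3, the most abundant, was at 61.0, 53.0 and 52.6 CPM in WT and 62.2, 63.9 and 69.5 CPM in KO. KO1 was only just above WT1, and the difference missed the threshold (log2 fold change 0.23, SE 0.0826, adjusted p = 0.0523), while without WT1 it was called (0.30, adjusted p = 4.37e-04). Id4 was at 9.09, 6.06 and 6.55 CPM in WT and 5.10, 4.93 and 5.87 CPM in KO. It was the ID gene with KO below WT and was not called (log2 fold change -0.44, SE 0.179, adjusted p = 0.117; 0.0432 without WT2 and 0.534 without WT1). Summed, the 4 ID genes were at 45.5 ± 5.28 FPKM in WT and 56.1 ± 3.17 in KO, a ratio of 1.23, with Id3 holding 68.1% ± 2.06 of the WT sum.

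A further 77 genes of the pathway, outside the members, were examined by the same fit. Counts were found for 66 of them, of which 18 (27.3%) were higher and 4 (6.06%) lower in KO, against 4.97% and 4.03% of all genes tested and 9.08% and 7.88% of those with a mean of at least 1 CPM. Of the 66 genes, 19 had a mean under 1 CPM. As the list was chosen with earlier results of these data known, these shares describe it and are not a test. The count of listed genes lower in KO moved with the libraries used, to 8 without WT1 and to 2 without WT3, KO1, KO2 or KO3. Of 17 extracellular regulators 9 were higher; 0 were lower by edgeR, DESeq2 or voom, and 1, Thbs1, was lower at an unadjusted p below 0.05. Among those higher were genes that hold TGF-β in its latent form. Lrrc32, which encodes GARP, an anchor of latent TGF-β on the cell surface, was at 7.84, 7.48 and 8.91 CPM in WT and at 30.5, 32.7 and 29.9 CPM in KO. That was 384% of the WT mean (log2 fold change 1.93, SE 0.12, adjusted p = 1.46e-55, or 2.62e-08 with filterByExpr), with no library near the other group. The 4 Ltbp genes, latent TGF-β binding proteins by name although LTBP2 does not bind latent TGF-β, all rose. Ltbp2 went from 29.3, 30.4 and 33.0 CPM in WT to 101.3, 99.2 and 110.5 CPM in KO (log2 fold change 1.74, SE 0.0844, adjusted p = 2.2e-91, or 3.79e-09 with filterByExpr). Ltbp1, Ltbp4 and Ltbp3 had log2 fold changes of 0.62, 0.59 and 0.56, each with KO libraries above all WT libraries. Their summed level was 73.4 ± 5.05 FPKM in WT and 118.7 ± 3.63 in KO, and 69.0% of it was Ltbp1 in WT. Kcp, a chordin-like secreted protein, was at 1.41, 1.497 and 1.34 CPM in WT and 3.45, 1.86 and 3.06 CPM in KO (log2 fold change 0.99, SE 0.304, adjusted p = 0.0166). It was not called without WT3, KO1 or KO3, nor by DESeq2 or voom. Fstl5 had 0, 0 and 2 counts in WT and 17, 3 and 7 in KO (adjusted p = 0.0263), a call lost without WT1, WT2, KO1 or KO3, with no filter on genes (0.0544) and with the replicate number as a block (0.104).

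Of the 9 other ligands with counts, 2 were higher. Gdf7, a BMP-like ligand, was at 1.25, 1.43 and 2.04 CPM in WT and at 6.37, 7.51 and 5.75 CPM in KO. KO had 416% of the WT mean (log2 fold change 2.02, SE 0.235, adjusted p = 9.39e-16, or 3.94e-05 with filterByExpr), a size near that of Bmp4. Lefty1, an inhibitor of Nodal, had 7, 4 and 9 counts in WT and 17, 27 and 21 in KO (log2 fold change 1.47, SE 0.495, adjusted p = 0.0357), and was not called without WT2, WT3, KO2 or KO3. It was also not called by DESeq2 (adjusted p = 0.115), by voom (0.12) or with no filter on genes (0.0737). No counts were found for Nodal, Bmp10, Gdf2 or Mstn. Of the 6 other receptors 0 were called by edgeR or DESeq2, and Acvr1c, at no more than 0.378 CPM, had an unadjusted p below 0.05 and was called by voom. Among 15 intracellular regulators Tgif1, a corepressor of SMADs, was higher (log2 fold change 0.43, SE 0.0861, adjusted p = 1.6e-05) and Usp15, a deubiquitinase, lower (-0.22, SE 0.0745, adjusted p = 0.0384). The call of Usp15 was lost without WT3, KO1, KO2 or KO3, with voom and with no filter on genes.

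Genes known to respond to the pathway did not move one way. Of 11 TGF-β response genes 4 were higher and 2 lower. Ccn2, a matricellular protein and a classic TGF-β target, was at 218.0, 209.3 and 203.1 CPM in WT and at 120.9, 126.8 and 134.8 CPM in KO. KO had 60.7% of the WT mean (log2 fold change -0.72, SE 0.0718, adjusted p = 1.79e-21, or 4.66e-06 with filterByExpr), and the contractile gene Acta2 was also lower, at a log2 fold change of -0.41. Tgfbi, Cdkn2b, Fn1 and Col1a1 were higher, at 0.43, 0.25, 0.29 and 0.20. For Fn1 this rested in part on WT1, at 4958 CPM against 7393 and 7483 CPM in WT2 and WT3, and the log2 fold change was 0.12 without it; Fn1 was not called by DESeq2 (adjusted p = 0.356) or with filterByExpr (0.105). Cdkn2b was not called when any library other than WT1 was left out, nor by DESeq2 or voom. Tagln, often abundant in fibroblasts, was at 1.74 to 2.51 CPM over all libraries. Of 8 BMP response genes with counts 2 were higher and Runx2, an osteoblast regulator, lower (log2 fold change -0.27, SE 0.0816, adjusted p = 0.0127; lost without WT3, KO1, KO2 or KO3). Msx2, a homeobox gene switched on by BMPs, had 2, 0 and 7 counts in WT and 27, 31 and 24 counts in KO (log2 fold change 2.94, SE 0.545, adjusted p = 2.67e-06). WT3 held most of its WT counts, and without WT3, where no WT library passed 3 counts, Msx2 was still called (adjusted p = 1.04e-06). Tnfrsf11b, which encodes osteoprotegerin, was at 10.1, 11.0 and 9.71 CPM in WT and 15.9, 17.2 and 17.1 CPM in KO (log2 fold change 0.70, SE 0.13, adjusted p = 2.26e-06).

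**Figure D4:**
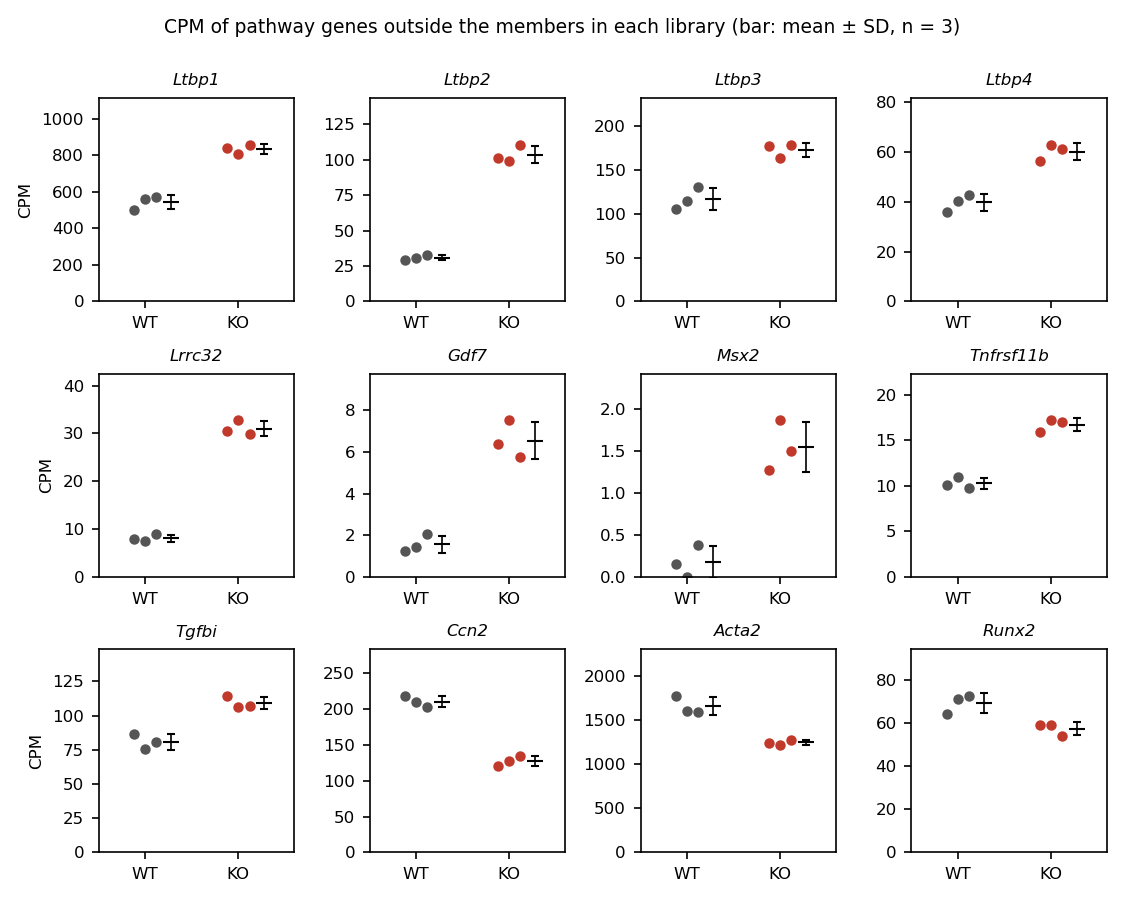
CPM in each library (points, grey WT and red KO, n = 3 each) of 12 genes of the pathway outside the members, with the mean and SD as a black bar; every y axis starts at 0. The Ltbp genes, Lrrc32, Gdf7, Msx2, Tnfrsf11b and Tgfbi lie higher in KO, and Ccn2, Acta2 and Runx2 lie lower, with no overlap between genotypes in any panel.

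The cells carried fibroblast markers in both genotypes, although some moved with genotype. All 8 fibroblast markers were well expressed, from Twist1 at 53.8 CPM in its lowest library to Col1a1 at 10210 CPM in its highest, and they summed to 18920 to 20810 CPM in WT and 19570 to 20160 CPM in KO. Thy1 and Pdgfrb were lower in KO by log2 fold changes of -1.03 and -0.74, Vim by -0.19, and Col1a1 was higher. Markers of other cell types that rose were Msln of the mesothelium (log2 fold change 3.95, SE 0.135, adjusted p = 2.31e-185), Krt18 of epithelia (2.94), Krt8 of epithelia (at most 0.0537 CPM in WT and 0.614 to 0.902 CPM in KO), Sox9 and Acan of cartilage (1.37 and 1.12) and Tubb3 of neurons (0.67). Of the mesothelial list, Lrrn4 and Muc16 were at 0, Upk3b reached 0.12 CPM and Wt1 0.437 CPM, and the list summed to 2.95 to 3.35 CPM in WT and 43.2 to 48.8 CPM in KO, nearly all of it Msln. The epithelial list summed to 0.499 to 1.18 CPM in WT and 5.53 to 6.68 CPM in KO, and the cartilage list to 14.0 to 16.2 and 35.8 to 36.5 CPM. The neural and glial list summed to 25.4 to 28.5 CPM in WT and 38.6 to 39.6 CPM in KO, mostly from Tubb3, the myeloid list to 1.80 to 2.52 and 2.16 to 3.40 CPM, and the skeletal muscle list reached no more than 0.301 CPM in any library. The part of these shifts in the changes of the TGF-β and BMP genes was not tested.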

How the data were processed

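RNA of MEFs was sequenced as read pairs (NEBNext Ultra library kit, Illumina NovaSeq). Per the labels' processing notes and the study's methods, the authors trimmed reads with fastp, aligned them with HISAT2 2.0.5 and counted them per gene with featureCounts 1.5.0-p3; the strand setting is not given in the sources used here. The authors deposited raw read counts and FPKM for 55565 genes, and coordinates are those of the deposited table. The methods name Ensembl 106, whose mouse build is GRCm39, while the processing notes name GRCm38 (mm10); promoters are in GRCm38.p6 and no coordinates were mixed.

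The counts were tested with edgeR 4.0.16 (R 4.3.3; quasi-likelihood fit after TMM, no covariates) on the 26898 genes whose FPKM exceeded 0 somewhere, with Benjamini-Hochberg adjustment over all of them. Calls had an adjusted p below 0.05, and DEGs also an absolute log2 fold change above 1. The prior degrees of freedom were infinite, so the p-values of genes whose spread exceeds the fitted trend are smaller than they should be; with edgeR's filterByExpr those of the strongest calls were larger by many orders of magnitude, and its value stands beside several calls of members and pathway genes. An exact permutation of 3 against 3 cannot go below 0.1. SEs are those of the fit, values after ± are SDs over 3 libraries, and counting CVs cover counting error only. Sums over genes are of FPKM, without a test. Where no library of a group passed 3 counts, no fold change is given.

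The members and gene lists were chosen with earlier results of these data known. Members with an adjusted p below 0.05 and an absolute log2 fold change above 0.3, DEG members and the highest member of each role are given by library, and up to 12 pathway genes with an absolute log2 fold change above 0.5 are named; Bmpr2, Gdf5, Gdf6, the ID genes, Smad9, Smad6, Bmper and the remaining pathway genes were named after their values were seen. Alternatives were DESeq2 1.42.0, limma 3.58.1 (voom), RLE scaling, other gene filters, the replicate number as a block and each library left out in turn. The labels do not pair the libraries, and deviations of same-numbered libraries correlated at -0.025, -0.016 and 0.037. Tables were made with Python 3.11.15 (pandas 2.3.3). Splicing and other assays of the study were not analysed here, and 1 gene of the pathway lists is not reported here.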

Additional observations from a re-analysis of the deposited data

How the results depend on the processing

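Of the 15 called members, 8 were called under all 13 alternatives (Tgfb2, Inhba, Bmp4, Tgfbr2, Acvr2a, Eng, Bambi and Id2), and 7 lost the call in at least 1; of the 35 not called, 6 were called in at least 1. Members higher and lower in KO numbered 6 and 5 with DESeq2, 7 and 5 with voom, 9 and 6 with RLE scaling, 7 and 5 with filterByExpr, with no filter, or with at least 10 counts in at least 3 libraries, and 6 to 11 and 4 to 7 with 1 library left out. DESeq2 and voom both dropped Bmp2, Bmpr2, Chrd, Fst and Id1 and both added Fstl1, voom also Gdf5; the cause was not tested. DEG members higher in KO went from 2 to 1 with DESeq2, filterByExpr or the 10-count filter, each without Chrd, and lay between 1 and 2 with 1 library left out (with voom the 2 were Bmp4 and Gdf5); DEG members lower in KO lay between 0 and 1, the 1 being Acvrl1. With the replicate block, 10 members were higher and 6 lower, all 15 main calls included, so the block changed no member's call but that of Bmper and, among the pathway genes named, that of Fstl5 (adjusted p = 0.104). Of the 22 called pathway genes 14 were called in all alternatives, and those lower numbered 2 to 8 with 1 library left out (8 without WT1). Of 96 alternative values of 12 KO to WT level ratios, 87 moved by less than the spread between replicates and 8 by more, each of these with the highest gene of its group left out (BMP and GDF ligands from 1.35 to 1.90 and type II receptors from 0.995 to 0.764, for example); the ratio of the antagonists turned from 1.07 to 0.970 without Fstl1, their highest gene. Leaving out a library leaves 2 against 3, and the 8 members under 1 CPM had at most 29 counts in any library, so that counting error is large for them.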
